A study of Mus musculus with 8 samples.

Results

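The mesothelial marker genes are 7 genes, Msln, Upk3b, Upk1b, Wt1, Lrrn4, Gpm6a and Bnc1, chosen by name as markers of the mesothelium, and they are 7 of the 27179 genes in the count table. All 7 were matched to the table by Entrez Gene identifier, and all 7 passed the filter on low counts. Their RNA was measured by bulk RNA-seq in cells sorted from the lungs of female C57BL/6J mice (C57BL/6 in the labels) with a rearrangement of Eml4 and Alk (Eml4-Alk translocation in the labels), which had been made by an adenovirus carrying Cas9 and guide RNAs. Every mouse carried tumors induced 11 to 12 weeks earlier and had received 4.5 nmol of QZ1-(PEG2K) intravenously 2 h before the lungs were taken. Their age is taken as 18 to 22 weeks, a range that the study's methods give with the age-matched healthy controls. QZ1 is a quenched Cy5 probe that becomes fluorescent and binds to nearby cells when its protease-cleavable linker is cut. Sorting of live cells that lacked CD45 and CD11b gave a QZ1-hi population (QZ+ in the labels) and a QZ1-lo population (QZ- in the labels), with 4 libraries each. Both populations came from tumor-bearing lungs, so neither is a healthy control. Per the study's reporting, the sorted fractions had no direct check of purity, and the labels do not say which libraries, if any, came from the same mouse. As neither labels nor methods say that the libraries of a population came from separate mice, p-values measure only the spread between these libraries.

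The mesothelium is the thin sheet of cells that covers the lung surface and lines the pleural cavity. It arises from the mesoderm, yet its cells are joined by tight junctions and hold keratins like an epithelium, and they also make matrix and adhesion proteins. Mesothelial cells are a small part of a dissociated lung, and they are usually recognized by the combined expression of surface proteins such as mesothelin and uroplakins with the transcription factor Wt1. In a bulk library, fewer mesothelial cells and less RNA per mesothelial cell cannot be told apart.

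Positions are those of the GENCODE M21 annotation of GRCm38, the build that mm10 names. Msln lies at chr17:25748613-25754378 on the minus strand, Upk3b at chr5:136038496-136046487 on the plus strand and Upk1b at chr16:38773184-38800328 on the minus strand. Wt1 lies at chr2:105126529-105173616 on the plus strand, and Lrrn4 at chr2:132868305-132880891 on the minus strand. Gpm6a lies at chr8:54954843-55060871 on the plus strand, and Bnc1 at chr7:81966672-81992292 on the minus strand. Of the 7, Bnc1 was the only gene whose exons overlap those of another annotated gene, with 2.11% of its exon bases shared with 4833418N17Rik on the opposite strand. The strand setting of the counting was not given in the sources used here. Stretches of 31 exonic bases that also occur in transcripts of another gene made up 3.64% of Msln, 1.50% of Bnc1 and 0.207% of Wt1, and none of the other 4 genes.

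Promoter windows of 300 bases, from 250 before to 50 after the transcription start, were found in RefSeq (GRCm38.p6) for 4 of the 7 genes, Upk3b, Lrrn4, Gpm6a and Bnc1. The windows of Upk3b and Lrrn4 are shown because these genes had the most alike pattern over the libraries, and that of Bnc1 because it had the largest fold change. Capitals mark GGAATG or its reverse complement, the core that TEAD factors of the Hippo pathway bind.
Upk3b, chr5:136038246-136038545, plus strand: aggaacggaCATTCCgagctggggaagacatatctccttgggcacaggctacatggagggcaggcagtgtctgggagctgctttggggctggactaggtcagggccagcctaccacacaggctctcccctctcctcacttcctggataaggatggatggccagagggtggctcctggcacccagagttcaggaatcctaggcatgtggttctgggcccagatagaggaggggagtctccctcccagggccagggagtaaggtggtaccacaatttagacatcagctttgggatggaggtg
Lrrn4, chr2:132880813-132881112, minus strand: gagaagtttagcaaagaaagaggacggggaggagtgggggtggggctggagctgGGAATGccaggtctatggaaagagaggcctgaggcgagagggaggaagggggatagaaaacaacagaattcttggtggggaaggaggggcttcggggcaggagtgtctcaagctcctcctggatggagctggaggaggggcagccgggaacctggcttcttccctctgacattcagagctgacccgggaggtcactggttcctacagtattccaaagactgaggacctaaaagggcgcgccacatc
Bnc1, chr7:81992250-81992549, minus strand: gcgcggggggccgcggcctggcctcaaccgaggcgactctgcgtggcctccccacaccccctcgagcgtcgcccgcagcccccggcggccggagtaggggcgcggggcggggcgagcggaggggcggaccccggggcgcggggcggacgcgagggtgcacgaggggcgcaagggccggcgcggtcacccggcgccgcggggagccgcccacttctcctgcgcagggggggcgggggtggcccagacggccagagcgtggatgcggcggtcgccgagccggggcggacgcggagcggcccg
The core stood at base 10 of the Upk3b window, at base 55 of the Lrrn4 window and at base 126 of the upstream window of the pair listed for Gpm6a. That window, chr8:54779184-54779483, lies far upstream of the Gpm6a position given above. These letters were not in the Bnc1 window or in the second Gpm6a window, chr8:54954478-54954777, which lies next to that position. Of 32851 promoter windows, 14.7% held them on either strand. GNGTGGGNG, a pattern for the zinc fingers that WT1 shares with EGR factors, was found in the Lrrn4 window at base 32 and in 14.3% of all windows. GCGGGGGCG, the GC-box form of that site, was in none of the 5 windows of these genes and in 2.91% of all windows. The Bnc1 window had a GC content of 83.3%, against 58.7% for Upk3b, 58.0% for Lrrn4 and a median of 52.7% over all windows. These motifs were chosen with the windows in view.

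Total counts ranged from 18380918 to 26847938 per library. Levels are given as CPM (counts scaled for library size by edgeR's TMM method). A count of 3, taken as the floor, is worth 0.0894 to 0.179 CPM depending on the library, and such floors cover counting error only. Mitochondrial and ribosomal RNA genes took up 43.7%, 62.8%, 52.0% and 65.6% of the counts in QZ1-hi 4591, 4593, 4595 and 4597. In QZ1-lo 4592, 4594, 4596 and 4598 they took up 34.0%, 53.2%, 37.0% and 43.3%. The highest share was thus in 4597, not 4593, among the QZ1-hi libraries, and in 4594 among the QZ1-lo libraries. Despite the gate against CD45, its gene Ptprc had mean levels of 131 ± 64.2 CPM in QZ1-hi and 125 ± 30.04 CPM in QZ1-lo (SD, n = 4 each). QZ1-hi 4593 and QZ1-lo 4594 held the highest summed level of the 7 genes in their populations, and results are therefore given with and without them.

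All 7 mesothelial genes were higher in the QZ1-hi population at an adjusted p under 0.05 (edgeR quasi-likelihood test, Benjamini-Hochberg adjustment over 15583 genes). Of all genes tested, 9.88% were called higher. The log2 fold changes of QZ1-hi over QZ1-lo ran from 1.91 for Msln to 4.58 for Bnc1 with a median of 2.98, whereas the median of all genes tested was 0.02. The number called fell to 2, Gpm6a and Bnc1, when QZ1-hi 4593 was left out, with 7.88% of all genes then called higher. It was 3 (Wt1, Gpm6a and Bnc1; 9.68% of all genes) with robust shrinkage of the dispersions in edgeR, and 2 (Gpm6a and Bnc1; 5.79%) at an adjusted p under 0.01. With at least 10 counts asked of every library, 4 of the 7 were tested and all 4 were called (9.97%). All 7 were called when counts were scaled by library size only (5.66%). DESeq2's Wald test called 6 (11.6%) and gave no adjusted p for Upk3b, and limma called 6 (10.9%). The summed level of the 7 genes was 82.2, 376, 55.3 and 102 CPM in QZ1-hi 4591, 4593, 4595 and 4597, and 20.4, 47.2, 14.3 and 7.12 CPM in QZ1-lo 4592, 4594, 4596 and 4598. Thus the lowest QZ1-hi library stood above the highest QZ1-lo library, by a small distance compared with the spread within QZ1-hi. The values of each gene below are given in the same order of libraries.

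**Figure D1:**
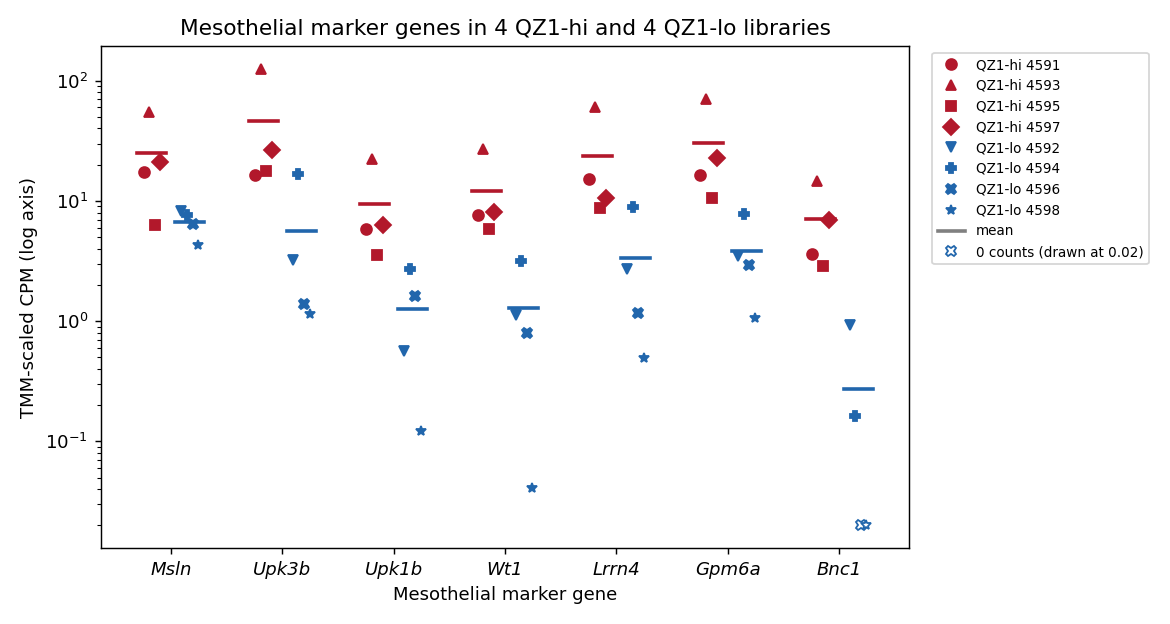
TMM-scaled CPM (log axis) of the 7 mesothelial genes in each library. Points are single libraries, red for QZ1-hi and blue for QZ1-lo, horizontal bars are means of 4 libraries, and open symbols drawn at 0.02 are libraries with 0 counts. QZ1-hi 4593 is the highest point for every gene, and the populations do not overlap for Upk1b, Wt1, Gpm6a and Bnc1.

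Of the surface proteins, Msln encodes mesothelin, a glycoprotein anchored in the outer membrane leaflet that binds the mucin Muc16. Its level was 17.4, 55.2, 6.24 and 21.2 CPM in QZ1-hi and 8.32, 7.61, 6.37 and 4.26 CPM in QZ1-lo. Library QZ1-hi 4595 lay within the QZ1-lo range, and the other 3 QZ1-hi libraries were above it. The means were 25.0 ± 21.1 and 6.64 ± 1.78 CPM (SD, n = 4 each), with a log2 fold change of 1.91 (edgeR, SE 0.52, adjusted p = 0.0247), the smallest of the 7. The exact permutation test on log2 CPM gave a two-sided p = 0.114, where the smallest p that 4 libraries against 4 allow is 0.0286. The spread of Msln in QZ1-lo, from 4.26 to 8.32 CPM, was also the narrowest of the 7 genes in relation to its mean. Its call was lost in 7 of 17 alternatives. Among them were limma (voom with sample quality weights, adjusted p = 0.0726) and edgeR without QZ1-lo 4594 (adjusted p = 0.0542). The highest adjusted p was 0.104, in edgeR without QZ1-hi 4593 and QZ1-lo 4594. Calls were also lost in 5 of 16 alternatives for Upk3b, 5 of 17 for Lrrn4, 3 of 16 for Upk1b, and 1 of 16 each for Wt1 and Bnc1. The highest adjusted p was 0.161 for Upk3b, 0.150 for Lrrn4, 0.103 for Upk1b and 0.0608 for Wt1, all in edgeR without QZ1-hi 4593. For Bnc1 it was 0.0905, in edgeR without QZ1-hi 4593 and QZ1-lo 4594.

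Upk3b and Upk1b encode uroplakins, membrane proteins best known from the plaques on the surface of the bladder urothelium, Upk1b being a tetraspanin. Upk3b was at 16.4, 126, 17.6 and 26.4 CPM in QZ1-hi and at 3.22, 16.8, 1.38 and 1.15 CPM in QZ1-lo. QZ1-lo 4594 reached the level of QZ1-hi 4591 and 4595, so that the populations overlapped. The means of Upk3b were 46.5 ± 52.9 and 5.63 ± 7.48 CPM (SD, n = 4 each), with a log2 fold change of 3.06 (edgeR, SE 0.92, adjusted p = 0.0400; exact permutation test, two-sided p = 0.0571).

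Upk1b was at 5.81, 22.3, 3.53 and 6.26 CPM in QZ1-hi and at 0.566, 2.73, 1.63 and 0.123 CPM in QZ1-lo, where the last value stands for 3 counts. The lowest QZ1-hi value exceeded the highest QZ1-lo value. Its log2 fold change was 2.91 (edgeR, SE 0.78, adjusted p = 0.0242; exact permutation test, two-sided p = 0.0286). The mean levels were 9.47 ± 8.62 CPM in QZ1-hi and 1.26 ± 1.16 CPM in QZ1-lo (SD, n = 4 each).

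Lrrn4 encodes a transmembrane protein with leucine-rich repeats that is related to neuronal adhesion proteins. It was at 15.1, 59.96, 8.73 and 10.5 CPM in QZ1-hi and at 2.71, 8.95, 1.16 and 0.491 CPM in QZ1-lo. As with Upk3b, QZ1-lo 4594 stood at the level of the lowest QZ1-hi library, here 4595, and the other 3 QZ1-lo libraries were below all QZ1-hi libraries. The log2 fold change was 2.83 (edgeR, SE 0.84, adjusted p = 0.0377; exact permutation test, two-sided p = 0.0571), with means of 23.6 ± 24.4 and 3.33 ± 3.86 CPM (SD, n = 4 each).

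Gpm6a encodes a membrane glycoprotein studied mostly in neurons, where it acts in the outgrowth of filopodia. It was at 16.4, 70.7, 10.5 and 22.6 CPM in QZ1-hi and at 3.49, 7.81, 2.93 and 1.06 CPM in QZ1-lo, without overlap. The means were 30.1 ± 27.6 and 3.82 ± 2.85 CPM (SD, n = 4 each). Its log2 fold change of 2.98 (edgeR, SE 0.66, adjusted p = 0.00877; exact permutation test, two-sided p = 0.0286) was the only one of the 7 that kept an adjusted p under 0.05 in each of the 17 alternatives fitted, the highest being 0.0366.

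Wt1 and Bnc1 are the transcription factors of the group. Wt1 is a zinc finger protein needed for the development of the kidney, gonads and mesothelium-derived tissues. Its level was 7.58, 27.3, 5.78 and 8.10 CPM in QZ1-hi and 1.13, 3.13, 0.796 and 0.0409 CPM in QZ1-lo, where the last value is a single count. The populations did not overlap, with means of 12.2 ± 10.1 and 1.28 ± 1.32 CPM (SD, n = 4 each). The log2 fold change of Wt1 was 3.26 (edgeR, SE 0.80, adjusted p = 0.0152; exact permutation test, two-sided p = 0.0286).

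Bnc1 encodes basonuclin 1, a zinc finger protein of basal keratinocytes and germ cells. It was at 3.64, 14.8, 2.89 and 6.97 CPM in QZ1-hi and at 0.924, 0.163, 0 and 0 CPM in QZ1-lo. The QZ1-lo counts were 31, 4, 0 and 0, and the absence of counts in QZ1-lo 4596 and 4598 allows levels up to 0.109 and 0.123 CPM. Bnc1 had the largest log2 fold change of the 7, 4.58 (edgeR, SE 1.01, adjusted p = 0.00876; exact permutation test, two-sided p = 0.0286), which ranked 21 among all genes tested. Its means were 7.07 ± 5.43 and 0.272 ± 0.442 CPM (SD, n = 4 each), and the QZ1-lo mean rested mainly on QZ1-lo 4592. Without that library the fitted log2 fold change was 6.92 (adjusted p = 0.00210, edgeR), a value set against QZ1-lo counts of 4, 0 and 0 that depends on how the fit treats counts near 0.

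For 4 of the 7 genes the populations did not overlap, and for each of the other 3 genes, 3 of 4 QZ1-hi libraries were above all QZ1-lo libraries. Of all genes tested, 11.9% were higher in QZ1-hi without overlap. QZ1-hi 4593 was the highest QZ1-hi library for all 7 genes, at 2.78 (Bnc1) to 5.70 (Upk3b) times the median of its population, and QZ1-hi 4595 was the lowest for 6. Among the QZ1-lo libraries, 4594 was the highest for 5 genes, with 4592 above it for Msln and Bnc1, and 4598 was the lowest for 6. Without QZ1-hi 4593 the median log2 fold change of the 7 genes was 2.02, without QZ1-lo 4594 it was 3.99, and without both it was 2.95. The single values ran from 1.15 (Msln) to 3.94 (Bnc1) without QZ1-hi 4593, and from 1.98 (Msln) to 4.58 (Upk3b) without QZ1-lo 4594. With both left out, a setting chosen after the data were seen, 5 of the 7 genes were called higher, with 6.92% of all genes called higher, and Msln (adjusted p = 0.104) and Bnc1 (adjusted p = 0.0905) were not (edgeR). Leaving out QZ1-lo 4592, 4596 or 4598 left 4 of the 7 genes called in each case, with 8.03%, 9.36% and 8.42% of all genes called higher. In every setting tried, all 7 fold changes that could be fitted stayed above 0.

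**Figure D2:**
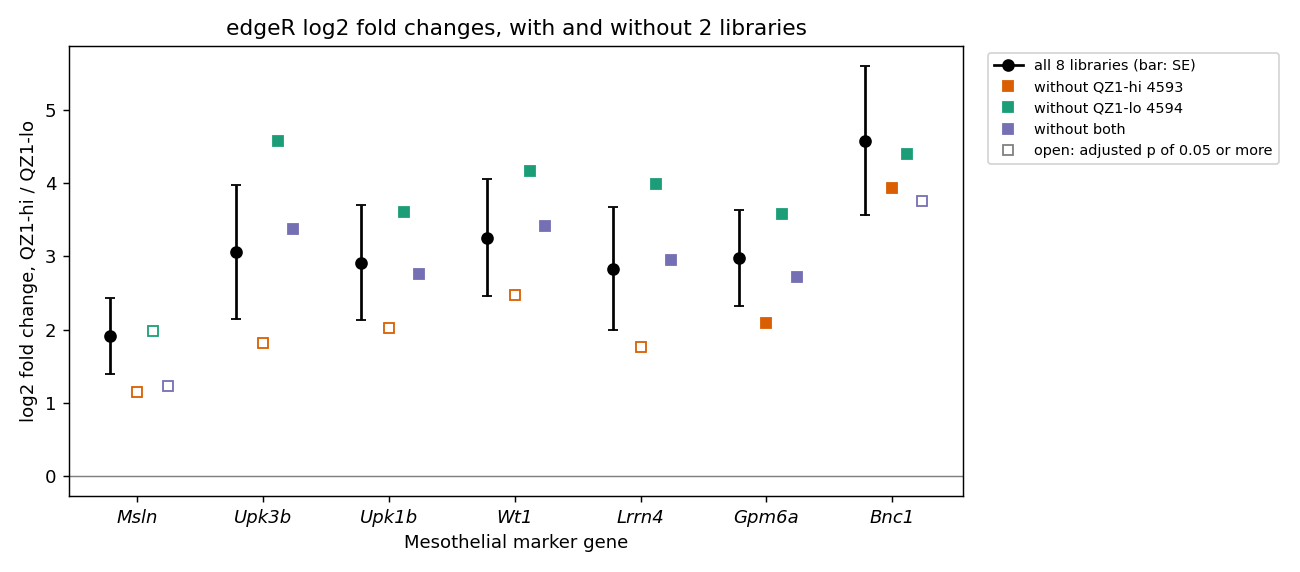
Fitted log2 fold changes of QZ1-hi over QZ1-lo (edgeR) for the 7 mesothelial genes. Black circles are all 8 libraries with bars for the SE, squares leave out QZ1-hi 4593, QZ1-lo 4594 or both, and open squares have an adjusted p of 0.05 or more. Without QZ1-hi 4593 the values drop to between 1.15 for Msln and 3.94 for Bnc1, and only those of Gpm6a and Bnc1 remain filled.

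The balance of the 7 genes within a library was described by the share each took of their summed counts, a measure that does not depend on the scaling between libraries. In QZ1-hi 4591, 4593, 4595 and 4597, Msln made up 21.1%, 14.7%, 11.3% and 20.7%. In QZ1-lo 4592, 4594, 4596 and 4598, it made up 40.8%, 16.1%, 44.7% and 59.8%, so QZ1-lo 4594 lay within the QZ1-hi range and the other 3 QZ1-lo libraries above it. The last share was 104 of 174 counts, with a 95% exact Clopper-Pearson interval from 52.1% to 67.1% that covers counting error only. The shares of Gpm6a overlapped between the populations, from 18.8% to 22.2% in QZ1-hi and from 14.9% to 20.6% in QZ1-lo. Bnc1 took 3.93% to 6.84% in QZ1-hi, 4.54% in QZ1-lo 4592 and 0.345% in QZ1-lo 4594. It had 0 of 394 counts in QZ1-lo 4596 and 0 of 174 in QZ1-lo 4598, with exact upper bounds of 0.932% and 2.10%. This pattern was noticed after the values were seen and was not tested.

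**Figure D3:**
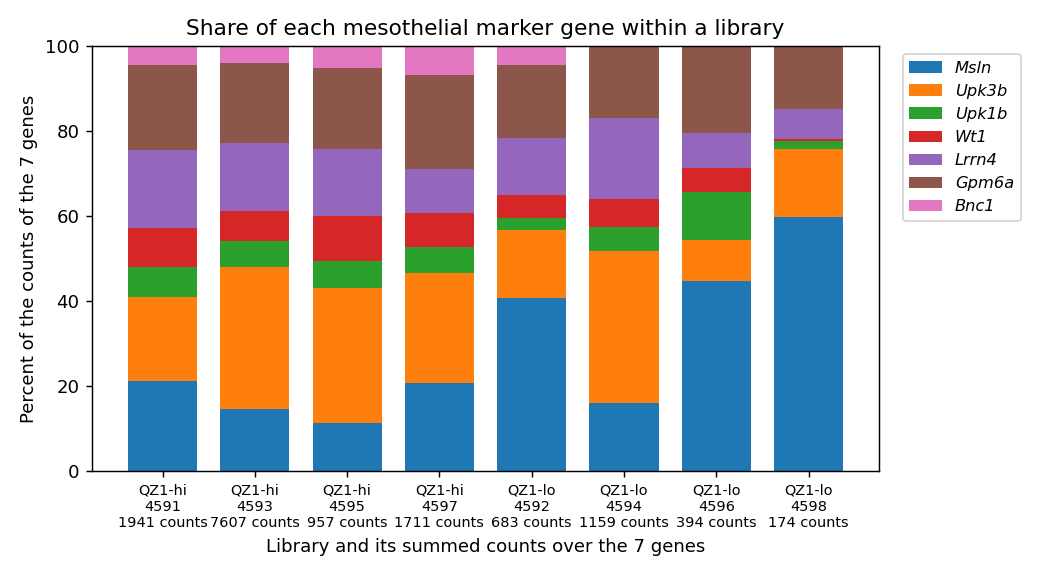
Percent of the summed counts of the 7 mesothelial genes taken by each gene in each library, with the summed counts under each bar. The blue Msln segment is largest in QZ1-lo 4592, 4596 and 4598 (40.8% to 59.8%), while QZ1-lo 4594 (16.1%) resembles the QZ1-hi libraries.

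Levels were compared between the genes after division by exon length. On this scale of CPM per kilobase, the QZ1-hi means were 13.2 ± 14.99 for Upk3b, 9.35 ± 8.57 for Gpm6a, 8.15 ± 6.88 for Msln, 6.34 ± 6.57 for Lrrn4, 4.53 ± 4.13 for Upk1b, 1.97 ± 1.63 for Wt1 and 1.52 ± 1.17 for Bnc1 (SD, n = 4). The QZ1-lo means were led by Msln with 2.17 ± 0.581 CPM per kilobase, followed by Upk3b with 1.59 ± 2.12, Gpm6a with 1.19 ± 0.887, Lrrn4 with 0.896 ± 1.04, Upk1b with 0.604 ± 0.557, Wt1 with 0.206 ± 0.213 and Bnc1 with 0.0585 ± 0.0951 (SD, n = 4). In both orders, each gene differed from the next by less than its own SD. Upk3b had the highest level per kilobase in QZ1-hi 4593, 4595 and 4597 and in QZ1-lo 4594, and Msln in the other 4 libraries. The transcription factors took the last 2 places in all 8 libraries.

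To describe how alike the genes were, log2 CPM was centred on each gene's own mean over the 8 libraries, and the root mean square (RMS) difference between genes was taken. These values mostly reflect the difference between the populations and QZ1-hi 4593, which all pairs share. The closest pair was Upk3b and Lrrn4, with an RMS difference of 0.44 log2 units, and the farthest was Msln and Bnc1, with 1.87. Against the mean profile of the 7 genes, the nearest of all genes tested with a mean of at least 1 CPM were Nnmt (0.41), which encodes an enzyme that methylates nicotinamide, Pkhd1l1 (0.46), which encodes a large membrane protein related to fibrocystin, and Podn (0.50), a small leucine-rich proteoglycan. Their own log2 fold changes were 2.76, 2.88 and 3.29, with adjusted p-values of 0.0336, 0.0255 and 0.000562 (edgeR). Nnmt was also the nearest gene to Gpm6a (0.33). The gene nearest to Wt1 was Rspo1 (0.39), an agonist of WNT signaling, and that nearest to Upk1b was Ptgis (0.45), which encodes prostacyclin synthase. Msln was nearest to Ephb6 (0.38), an Eph receptor without kinase activity, and Lrrn4 to Fras1 (0.42), an extracellular matrix protein of basement membranes. Bnc1 had no gene as near, the first being Prkg2 (0.78), a kinase activated by cyclic GMP. With 4, 0 and 0 counts in QZ1-lo 4594, 4596 and 4598, the log2 CPM of Bnc1 there depends on the prior count of 2. Its distances to other genes, also that to Msln, depend on it as well.

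Further genes associated with mesothelium were taken as a list of 23, of which 21 passed the filter. At an adjusted p under 0.05 (edgeR), 9 of these were higher in QZ1-hi, 5 were lower and 7 did not pass, with a median log2 fold change of 1.90 against 0.02 for all genes tested, of which 9.88% were called higher and 8.21% lower. Without QZ1-hi 4593, 5 were higher, with 7.88% of all genes then called higher. The mucin Muc16, the binding partner of mesothelin, was at 1.65, 5.48, 1.33 and 3.04 CPM in QZ1-hi and at 0.328, 0.122, 0.905 and 0 CPM in QZ1-lo, without overlap. Its log2 fold change was 3.05 (edgeR, SE 0.93, adjusted p = 0.0419). Cldn15, a tight junction claudin, was at 3.26, 27.7, 1.56 and 5.78 CPM in QZ1-hi and at 0.417, 1.75, 0.181 and 0 CPM in QZ1-lo, with QZ1-lo 4594 above QZ1-hi 4595 and a log2 fold change of 4.04 (adjusted p = 0.0247, edgeR).

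The other genes of this list that rose were Pdpn (log2 fold change 0.72), Igfbp5 (1.70), Igfbp6 (2.70), Rarres2 (3.10), Efemp1 (2.63), Ptgis (2.85) and the complement gene C3 (1.90). Fibroblasts also express most of these, and Pdpn, which encodes podoplanin, is expressed by alveolar type 1 and lymphatic endothelial cells as well. Exons of Rarres2 share 33.6% of their bases with Lrrc61 on the opposite strand, which makes its count uncertain. Several genes with positive fold changes did not pass. Nkain4 had a log2 fold change of 2.71 (adjusted p = 0.0834), Rspo1 2.71 (adjusted p = 0.0683), Crb2 2.87 (adjusted p = 0.0684) and Aldh1a2, an enzyme of retinoic acid synthesis, 1.98 (adjusted p = 0.0502, all edgeR). Tmem151a (0.89), Dmkn (0.44) and Slpi (0.16) did not pass either. Calb2, which encodes calretinin and is a common marker in the diagnosis of mesothelioma, had 11 counts in QZ1-hi 4591 and 0 counts in the other 7 libraries, and was not tested. Sbspon, with 7 counts over the QZ1-hi libraries and 25 over the QZ1-lo libraries, did not pass the filter either. Of its exon bases, 72.8% are shared with another gene.

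The genes of the list that fell were the keratins Krt7 (log2 fold change -1.44), Krt8 (-1.50), Krt18 (-1.45) and Krt19 (-1.26), and Hp (-1.34), which encodes haptoglobin. Mesothelial cells and lung epithelium both express these keratins. Krt8 was at 163, 143, 129 and 105 CPM in QZ1-hi and at 407, 346, 432 and 343 CPM in QZ1-lo, without overlap. The epithelial genes Epcam (log2 fold change -1.17) and Cdh1 (-1.34) were lower in QZ1-hi as well, and the part of epithelial RNA in the keratin values was not tested. Without the keratins, a division made after the values were seen, 9 genes of the list were higher and 1 was lower, with a median log2 fold change of 2.63.

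**Figure D4:**
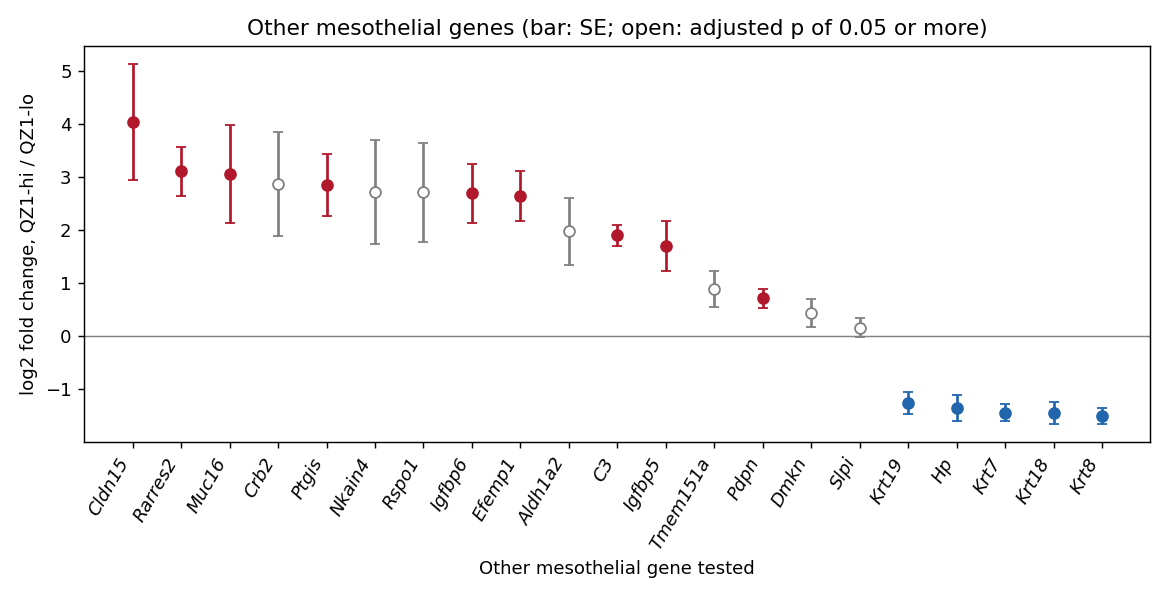
Fitted log2 fold changes of QZ1-hi over QZ1-lo (edgeR) for the 21 further mesothelial genes tested, in order of size, with bars for the SE. Red points were called higher, blue points lower, and open points had an adjusted p of 0.05 or more. The 9 red points lie between 0.72 (Pdpn) and 4.04 (Cldn15), and the 5 blue points between -1.50 (Krt8) and -1.26 (Krt19).

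Paralogs of the 7 genes were mostly at or near 0. Of 11 paralogs, 5 passed the filter, 2 of which were higher in QZ1-hi and none lower (edgeR). Over all genes tested, 9.88% were called higher and 8.21% lower. Bnc2, the second basonuclin, was at 5.17, 10.5, 7.23 and 7.75 CPM in QZ1-hi and at 2.18, 2.48, 0.760 and 0.0409 CPM in QZ1-lo, with a log2 fold change of 2.47 (adjusted p = 0.0295, edgeR). Bnc2 is also expressed by fibroblasts. Gpm6b was at 13.1, 9.24, 10.3 and 7.87 CPM in QZ1-hi and at 2.12, 1.79, 1.99 and 2.13 CPM in QZ1-lo, with a log2 fold change of 2.33 (adjusted p = 0.000278, edgeR). For neither was QZ1-hi 4593 as far from its population as for the 7 genes, and for Gpm6b it was not the highest. Lrrn2 (log2 fold change 0.82, adjusted p = 0.574) and Lrrn3 (0.26, adjusted p = 0.866, both edgeR) did not pass. The bladder uroplakins Upk1a, Upk2 and Upk3a, as well as Upk3bl and Lrrn1, were too low to be tested, and Mslnl had 0 counts in all 8 libraries.

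Markers of other cell types moved with the populations as well. Their calls stand beside 9.88% of all genes called higher in QZ1-hi and 8.21% called lower. Of 8 fibroblast markers, 7 were higher in QZ1-hi, and their summed level ranged from 1673 to 3267 CPM in QZ1-hi and from 42.9 to 373 CPM in QZ1-lo, with Tcf21 at 0 counts in QZ1-lo 4592 and 4598. All 7 endothelial markers were higher, at 906 to 2145 CPM against 69.7 to 276 CPM, as were 3 of 5 pericyte markers, at 84.0 to 186 CPM against 5.44 to 24.7 CPM. All 4 airway markers were lower, at 287 to 856 CPM in QZ1-hi against 1308 to 3684 CPM in QZ1-lo, and all 4 alveolar type 1 markers were lower, at 368 to 585 CPM against 764 to 933 CPM. The alveolar type 2 markers did not fall. All 5 had positive log2 fold changes, of which only that of Sftpc (0.78, adjusted p = 0.0231, edgeR) passed, and their summed level was 4828 to 8969 CPM in QZ1-hi and 3427 to 5576 CPM in QZ1-lo. Of 5 smooth muscle markers, Myh11 and Tagln were higher and Cnn1, with 1 count over the QZ1-hi libraries and 56 over the QZ1-lo libraries, was lower. Exons of Tagln share 67.9% of their bases with Gm48529 and Pcsk7 on the opposite strand, which makes its count uncertain. None of 5 leukocyte markers and none of 3 cardiac muscle markers passed. The part of these cells in the values of the mesothelial genes was not tested. QZ1-hi 4593 and QZ1-lo 4594, which were highest for the summed mesothelial genes, were also highest in their populations for the summed airway markers. That sum was mostly Scgb1a1, at 796 of 856 CPM in QZ1-hi 4593 and 3477 of 3684 CPM in QZ1-lo 4594. In QZ1-hi, all 4 airway markers were highest in 4593. In QZ1-lo, Scgb1a1 and Scgb3a2 were highest in 4594, but Foxj1 (131 against 114 CPM) and Ccdc78 (41.7 against 30.6 CPM) in 4596. For the summed fibroblast markers and the summed endothelial markers, QZ1-hi 4595 and QZ1-lo 4596 were highest instead. Dcn alone among the fibroblast markers was highest in both QZ1-hi 4593 and QZ1-lo 4594. It was at 540 and 75.1 CPM there, against 495 CPM in QZ1-hi 4595 and 53.9 CPM in QZ1-lo 4596. Pdgfra was highest in QZ1-hi 4595 but in QZ1-lo 4594. The summed mesothelial level in QZ1-hi 4595, the highest for the summed fibroblast, endothelial and pericyte markers, was the lowest of the QZ1-hi libraries.

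**Figure D5:**
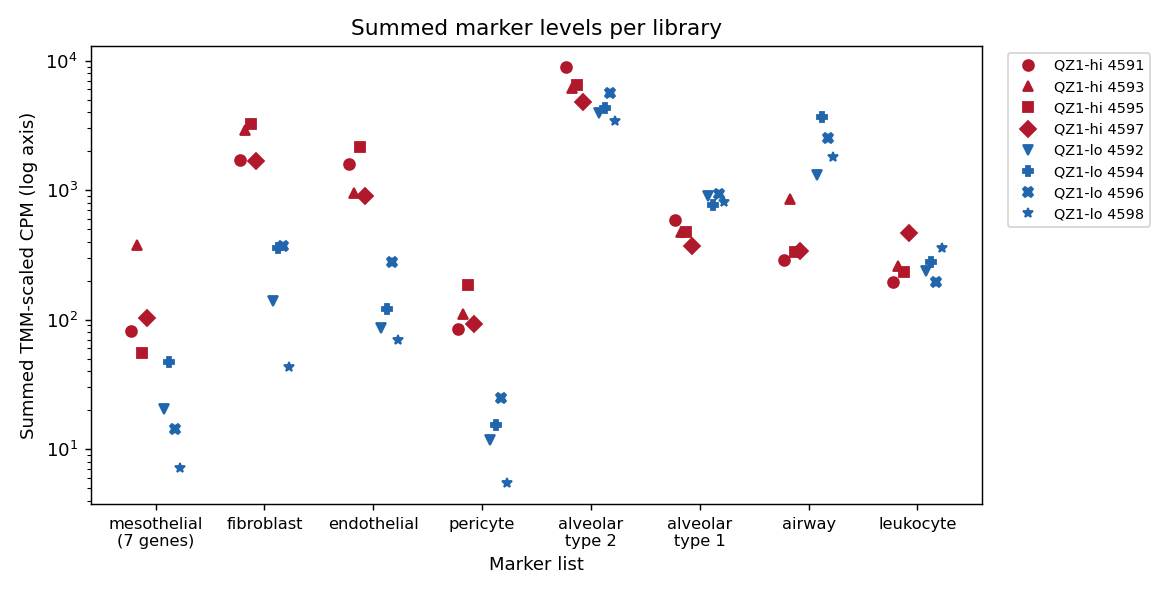
Summed TMM-scaled CPM (log axis) of the 7 mesothelial genes and of 7 lists of markers of other cell types in each library, red for QZ1-hi and blue for QZ1-lo. QZ1-hi 4593 (red triangle) is far above the other QZ1-hi libraries for mesothelial (376 CPM) and airway markers (856 CPM), and within their range for the other lists. The airway sum is mostly Scgb1a1.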

How the data were processed

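Bulk RNA-seq of 4 QZ1-hi and 4 QZ1-lo libraries was analysed. The deposited values are raw read counts for each gene without normalization, which the authors obtained by running Rsubread on BAM files (SMARTer stranded total RNA kit, NextSeq500) and listed by Entrez Gene identifier. The submitters' processing notes name mm10 and DESeq2, and the aligner, annotation and strand setting are not given in the sources used here. Of 27179 identifiers, 25275 were given a symbol from RefSeq.

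Counts were compared in R 4.3.3 with edgeR 4.0.16 (TMM normalization, filterByExpr with a minimum count of 10 and a minimum total count of 15, quasi-likelihood test, Benjamini-Hochberg adjustment over 15583 genes, threshold 0.05). The common dispersion was 0.113. An SE was obtained as the absolute log2 fold change over the root of F. Single genes were also compared by exact two-sided permutation over 70 assignments, on log2 CPM with a prior count of 2. Replicates of a population differed by more than sampling noise, with a chi-square per degree of freedom of 24.8 to 49.1. Total counts are given in the results, and since no molecular identifiers were used, reads are not independent molecules. The procedure was tested on simulated data.

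The genes, lists, tests and alternatives were chosen with earlier results of these data known. The genes named are the 7 members, the listed genes and the 3 genes nearest to each profile. Motifs were searched in RefSeq promoter windows on both strands. A TATA box and an E-box pattern were also looked for and are not reported. Alternatives were DESeq2 1.42.0 (the authors' test), limma 3.58.1 with voom and quality weights, DESeq2 size factors, library size only, no filter, robust shrinkage, at least 10 counts in every library, removal of mitochondrial and ribosomal RNA genes, an adjusted p under 0.01, a prior count of 0.5 and each library left out in turn. Leaving out QZ1-hi 4593 and QZ1-lo 4594 together was added after the data were seen. The result of 1 listed gene is not reported here. Imaging, sensors, staining and single-cell data were not analysed here.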

Additional observations from a re-analysis of the deposited data

Results flagged for a closer look

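Sets of 4 libraries were checked for a library far from the others (gap to the nearest library, as a share of the range, above Dixon's 95% critical value). Chance flags about 1 in 20 such sets if the values are normally distributed. The check used CPM, where high values weigh more than on a log scale, so that rate need not hold. It was not made on log2 CPM. Of the 40 sets checked, 7 had such a library. In QZ1-hi this was library 4593, above the other 3, for Upk3b (0.908), Upk1b (0.854), Wt1 (0.892) and Lrrn4 (0.876). It was also 4593 for the summed level of the 7 mesothelial genes (0.854) and for the summed airway markers (0.913). In QZ1-lo it was library 4594, for Upk3b (0.867). These sets share libraries and are not independent of each other.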

How the results depend on the processing

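The number of mesothelial genes called higher was 7 of 7, beside 9.88% of all genes tested. It was 4 of 4 tested with at least 10 counts in every library (9.97% of all genes) and 3 with robust shrinkage (9.68%). At an adjusted p under 0.01 it was 2 (5.79%). It was 2 to 7 when each library was left out in turn, with 2 without QZ1-hi 4593 (7.88%). DESeq2 called 6 (11.6%) and gave Upk3b no adjusted p, and limma called 6 (10.9%). With library size only, the log2 fold changes of all genes had a median of -0.44 in place of 0.02 and those of the 7 genes a median of 2.47 in place of 2.98, with all 7 called, and this scaling moved the calls of all genes from 1540 higher and 1280 lower to 882 and 2509 (54.6% to 26.0% higher). No fold change reversed under any alternative. With robust shrinkage the adjusted p was 0.0564 for Msln, 0.125 for Upk3b, 0.0509 for Upk1b and 0.115 for Lrrn4. With library size only, the permutation p of Upk3b went from 0.0571 to 0.0286, that of Lrrn4 from 0.0571 to 0.0857 and that of Msln from 0.114 to 0.171. Of the further mesothelial genes, 9 were called higher, beside 9.88% of all genes tested, and 5 at an adjusted p under 0.01 (5.79%). Leaving out each library in turn gave 5 to 12. The 5 were without QZ1-hi 4593 (7.88%), and the 12 without QZ1-lo 4594 (1328 of 15833 genes). Of the paralogs, 2 were called higher. The count was 1 of 1 tested with at least 10 counts in every library (9.97% of all genes). It was 1 at an adjusted p under 0.01 (5.79%) and 1 without QZ1-hi 4593 and QZ1-lo 4594 (6.92%). Leaving out each library gave 1 to 2. The count was 1 without QZ1-hi 4593 (7.88%), 4595 (1136 of 16011 genes) or 4597 (1506 of 15904 genes), or QZ1-lo 4596 (9.36%). The cause of these changes was not tested, except that fewer genes or libraries enter some settings. No paired analysis was possible because the labels carry no replicate numbers and link no libraries by mouse. Levels under the floor of 3 counts limit the QZ1-lo values of Bnc1 and Wt1.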
